A study of Mus musculus with 24 samples.

Results

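Heart transcripts at ZT07, in the middle of the light phase when mice rest, were compared with those at ZT23, at the end of the dark phase. Zeitgeber time (ZT) counts hours from lights-on, so the animals of ZT07 had been in the light for most of a rest phase and those of ZT23 were about to enter it. The comparison used the 8 arrays whose labels give these times, 4 for ZT07 and 4 for ZT23, out of 24 arrays in the series. All animals were male wild-type C57Bl/6 mice of 8 weeks kept in 12 h light and 12 h dark, and the myocardium was frozen at the time of collection with no other treatment named. Total RNA was labelled as biotinylated cRNA and hybridised to Affymetrix arrays, 1 array per sample, and the labels call the 4 arrays of a time biological replicates. Probe sets with a single gene symbol were averaged per gene, which gave 22180 genes. Each value is a log2 difference from the gene's own median over the 24 arrays. No expression level is kept and genes cannot be ranked by level, and the base of the logarithm and the sense of the sign (higher for more RNA) are assumptions on which every fold rests.

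The circadian clock of heart cells is a loop in which BMAL1 (gene Arntl) and CLOCK switch on genes with an E-box in their promoter, among them the Per, Cry and Nr1d genes. The PER and CRY proteins then block BMAL1 and CLOCK, and the REV-ERB receptors made from Nr1d1 and Nr1d2 repress Arntl. In mice the rest phase falls in the light and feeding falls mostly in the dark, so time of day also brings changes in fuel, body temperature and hormones. An effect of the light cycle, of feeding or of the clock cannot be told apart in this design, nor can a batch that the arrays of a time might share, since the labels give none. In tissue RNA, fewer cells of a type and less RNA per cell cannot be told apart either.

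Of the 22180 genes, 147 passed an adjusted p of 0.05 in limma's moderated test (0.663%), 90 of them higher at ZT07 (0.406%) and 57 higher at ZT23 (0.257%). The clock genes Nr1d1, Dbp and Nr1d2, the titin-cap gene Tcap and Per1 led the genes higher at ZT07. The platelet chemokine gene Ppbp and Arntl led those higher at ZT23. Most changes were small. The median fold was 1.32 among genes higher at ZT07, with 20 of 90 at 1.5-fold or more and 6 at 2-fold or more. Among genes higher at ZT23 the median fold was 1.34, with 13 of 57 at 1.5-fold or more and 2 at 2-fold or more. The 4 values of one time all lay above the 4 of the other in each of the 147 called genes, a separation that 4.38% of all genes showed with ZT07 above and 3.23% with ZT23 above. At an unadjusted p below 0.05 the number of genes was 2848 (12.8%).

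The number of calls depended on single arrays. ZT07 replicate 4 and ZT23 replicate 4 had the widest spread of values over all probe sets, with SDs of 0.153 and 0.155 against 0.103 to 0.12 in the other 6 arrays. Leaving out both left 36 calls, of which 30 were among the 147. Leaving out 1 array at a time left between 21 calls (without ZT07 replicate 3) and 92 (without ZT07 replicate 2), whereas a fit of all 24 arrays made 323 calls, 115 of them among the 147. Since the groups of all 147 were wholly apart, no direction could turn when arrays were left out, and a kept direction is no sign of stability. Of the 53 named genes that were called, 15 kept the call when any single array was left out. These were Nr1d1, Dbp, Tcap, Nr1d2, Per3, Bhlhe40, Klf9, Bhlhe41, Cirbp, Gpam, Cry1, Nfil3, Spon2, Ceacam1 and Arntl. The other 38 each lost it without at least 1 array, with adjusted p-values of up to 0.131.

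The promoters of 5 called genes are shown first because they hold the motifs through which clock and heat shock factors are known to act. The windows are those of RefSeq on GRCm38.p6, from upstream of the annotated start of the gene into its first bases, read 5′ to 3′ on the strand of the gene. Capitals mark matches to CACGTG (E-box) in Ciart, to CACGTG and to CACGTT or its reverse complement (E′-box) in Cry1, to TTATGTAA (D-box) in Per3, to TAGGTCA (core of the element bound by ROR and REV-ERB receptors) in Nfil3, and to GAANNTTC (heat shock element) in Chordc1. Both strands were searched, and the 2 matches of Chordc1 lie at its annotated start. The matches shown do not overlap one another. A match describes these letters only and shows no binding.
Ciart (chr3:95882179-95882478, minus strand): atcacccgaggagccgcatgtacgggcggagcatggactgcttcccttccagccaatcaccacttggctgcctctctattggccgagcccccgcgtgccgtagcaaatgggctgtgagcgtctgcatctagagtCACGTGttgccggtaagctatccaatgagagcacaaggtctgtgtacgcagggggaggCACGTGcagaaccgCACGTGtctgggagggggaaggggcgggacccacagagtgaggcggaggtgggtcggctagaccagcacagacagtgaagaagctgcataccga
Cry1 (chr10:85185005-85185304, minus strand): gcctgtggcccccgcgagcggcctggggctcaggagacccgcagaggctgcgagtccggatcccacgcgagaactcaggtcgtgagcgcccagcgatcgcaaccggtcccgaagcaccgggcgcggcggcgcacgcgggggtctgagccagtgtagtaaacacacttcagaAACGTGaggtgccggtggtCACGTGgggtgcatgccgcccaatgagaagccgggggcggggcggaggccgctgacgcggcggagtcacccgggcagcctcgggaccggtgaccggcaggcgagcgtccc
Per3 (chr4:151044616-151044915, minus strand): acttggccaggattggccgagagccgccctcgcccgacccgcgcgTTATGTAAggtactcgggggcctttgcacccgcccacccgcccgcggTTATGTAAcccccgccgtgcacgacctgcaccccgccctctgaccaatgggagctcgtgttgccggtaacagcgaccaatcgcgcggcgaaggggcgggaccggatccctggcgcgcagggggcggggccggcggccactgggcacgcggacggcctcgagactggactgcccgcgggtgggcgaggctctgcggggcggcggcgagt
Nfil3 (chr13:52980990-52981289, minus strand): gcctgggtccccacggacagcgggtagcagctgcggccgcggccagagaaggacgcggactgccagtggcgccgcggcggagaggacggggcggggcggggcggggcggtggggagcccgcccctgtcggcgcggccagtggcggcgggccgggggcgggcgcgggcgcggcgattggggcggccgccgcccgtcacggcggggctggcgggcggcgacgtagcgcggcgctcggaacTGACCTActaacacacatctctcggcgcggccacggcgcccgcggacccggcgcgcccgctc
Chordc1 (chr9:18292017-18292316, plus strand): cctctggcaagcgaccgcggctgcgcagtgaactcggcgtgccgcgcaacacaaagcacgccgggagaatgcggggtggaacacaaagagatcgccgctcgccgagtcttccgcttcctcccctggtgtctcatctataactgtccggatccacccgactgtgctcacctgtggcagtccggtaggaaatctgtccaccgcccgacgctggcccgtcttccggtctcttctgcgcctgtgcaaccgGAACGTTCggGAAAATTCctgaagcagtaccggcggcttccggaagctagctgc

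An E-box stood in 10 of the 74 promoters of genes higher at ZT07 that the RefSeq table holds (13.5%) and in 7 of 42 of genes higher at ZT23 (16.7%), against 8.18% of 16990 promoters of all genes tested. The E′-box was found in 12.2% and 11.9%, against 4.83% of all. A D-box, the site of the DBP family and of its opponent NFIL3, stood in 3 of 74 promoters of genes higher at ZT07 and in 1 of 42 of the others, against 0.889% of all. The heat shock element stood in 3 of 74 (4.05%) and in 5 of 42 (11.9%), against 7.1% of all. TAGGTCA stood in 1 of 74 and 2 of 42 (2.38% of all), and the cyclic AMP element TGACGTCA in 3 of 74 and 0 of 42 (2.45% of all). In the promoters of the core clock list the E-box was present in 5 of 19, and Arntl, Dbp and Nr1d2 held none of the searched motifs in these windows. Variants of these letters were not searched, and of the 2 windows of Arntl only the first was.

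Most of the core clock genes that were measured differed between mid-rest and the end of the night. Of 20 measured members of a list of 24, 8 were higher at ZT07 and 4 were higher at ZT23, against 0.663% of all genes called in either direction. The 8 were Nr1d1, Nr1d2, Dbp, Per1, Per3, Ciart, Bhlhe40 and Bhlhe41. The 4 were Arntl, Clock, Cry1 and Nfil3. Leaving out both arrays numbered 4 left 7 and 3, and leaving out single arrays left 6 to 8 and 3 to 4.

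**Figure D1:**
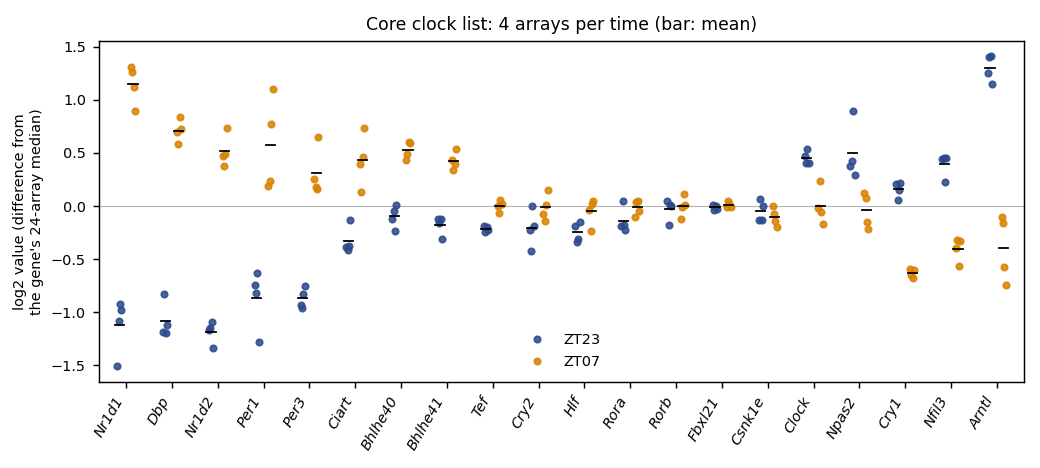
Values of the 20 measured core clock genes on each of the 8 arrays. The vertical axis is the log2 difference from the gene's median over 24 arrays, points are single arrays (blue for ZT23, orange for ZT07) and bars are means of 4. The 2 colours separate completely in the 8 genes on the left and in Tef, Clock, Npas2, Cry1, Nfil3 and Arntl, and overlap in Cry2, Hlf, Rora, Rorb, Fbxl21 and Csnk1e.

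Of the activators of the loop, Arntl and Clock were higher at ZT23. Arntl, whose product BMAL1 pairs with CLOCK, had log2 values of -0.10, -0.16, -0.57 and -0.75 at ZT07 and 1.25, 1.40, 1.41 and 1.15 at ZT23, in the order of replicates 1 to 4 that is used throughout. The difference, given throughout as ZT07 minus ZT23, was -1.70 (SE 0.141, adjusted p = 0.0019), a 3.24-fold higher signal at ZT23. Clock had -0.015, 0.24, -0.052 and -0.17 at ZT07 and 0.47, 0.40, 0.54 and 0.41 at ZT23, and ZT07 replicate 2 came closest to the ZT23 arrays. Its difference was -0.45 (SE 0.0802, adjusted p = 0.0491), and the call was lost on leaving out any 1 of 7 arrays, with an adjusted p of 0.131 without ZT07 replicate 3. Npas2, which can take the place of CLOCK, had 0.13, 0.075, -0.15 and -0.22 at ZT07 and 0.37, 0.42, 0.90 and 0.29 at ZT23, and the groups did not overlap. It did not pass the test, with -0.54 (95% interval -0.84 to -0.23, adjusted p = 0.121).

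The REV-ERB receptor genes, which repress Arntl, ran the opposite way. Nr1d1 had 1.31, 1.26, 1.12 and 0.89 at ZT07 and -1.51, -1.08, -0.92 and -0.98 at ZT23, a 4.81-fold higher signal at ZT07 and a log2 difference of 2.27 (SE 0.136, adjusted p = 0.00021). Nr1d2 had 0.48, 0.38, 0.49 and 0.74 at ZT07 and -1.17, -1.15, -1.09 and -1.34 at ZT23, with a difference of 1.71 (SE 0.0817, adjusted p = 7.5e-05), or 3.27-fold. No array of one time came near those of the other in either gene. Of the ROR receptor genes, which activate the same element, Rora and Rorb did not pass: the difference was 0.12 (95% interval -0.03 to 0.28, adjusted p = 0.517) in Rora and 0.026 (95% interval -0.12 to 0.17, adjusted p = 0.934) in Rorb. The sign of Rorb turned without ZT07 replicate 3 or without ZT23 replicate 2.

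Among the repressors, Per1, Per3, Ciart and the Dec genes were higher at ZT07 while Cry1 was higher at ZT23. Per1 had 0.19, 0.23, 0.77 and 1.10 at ZT07 and -0.75, -0.82, -0.63 and -1.28 at ZT23, a wide spread at ZT07 with replicates 3 and 4 well above replicates 1 and 2, and a difference of 1.44 (SE 0.216, adjusted p = 0.0314). Its call was lost on leaving out any 1 of 6 arrays, with an adjusted p of 0.0982 without ZT07 replicate 3. Per3, whose promoter above holds 2 D-boxes, had 0.25, 0.18, 0.16 and 0.65 at ZT07 and -0.93, -0.96, -0.83 and -0.76 at ZT23, with a difference of 1.18 (SE 0.105, adjusted p = 0.00306). Ciart, whose product CHRONO represses BMAL1 and CLOCK and whose promoter holds 3 E-boxes, had 0.40, 0.13, 0.47 and 0.74 at ZT07 and -0.38, -0.41, -0.38 and -0.13 at ZT23, with a difference of 0.76 (SE 0.119, adjusted p = 0.0342), which was also lost on leaving out any 1 of 6 arrays (adjusted p = 0.108 without ZT23 replicate 2). The Dec genes encode repressors that compete for the E-box. Bhlhe40 (DEC1) had 0.43, 0.49, 0.60 and 0.59 at ZT07 and -0.12, -0.047, -0.23 and 0.008 at ZT23, with a difference of 0.63 (SE 0.0621, adjusted p = 0.0052). Bhlhe41 (DEC2) had 0.43, 0.34, 0.39 and 0.54 at ZT07 and -0.12, -0.16, -0.12 and -0.31 at ZT23, with a difference of 0.60 (SE 0.0592, adjusted p = 0.0052). Cry1, which encodes a strong repressor of BMAL1 and CLOCK and has an E-box and an E′-box in the window shown, had -0.59, -0.65, -0.68 and -0.61 at ZT07 and 0.20, 0.058, 0.15 and 0.22 at ZT23. Both groups of Cry1 were tight, with SDs of 0.042 and 0.074 (n = 4), and the difference was -0.79 (SE 0.0471, adjusted p = 0.00021), or 1.73-fold higher at ZT23. Cry2 overlapped between the times, with 0.20 (95% interval -0.014 to 0.41, adjusted p = 0.431).

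Of the factors that bind the D-box, the activator gene Dbp was higher at ZT07 and the repressor gene Nfil3 at ZT23. Dbp had 0.70, 0.58, 0.84 and 0.73 at ZT07 and -1.19, -0.83, -1.20 and -1.12 at ZT23, a 3.47-fold difference and on the log2 scale one of 1.80 (SE 0.0885, adjusted p = 7.5e-05). Nfil3 had -0.40, -0.32, -0.57 and -0.33 at ZT07 and 0.44, 0.45, 0.22 and 0.45 at ZT23, in which ZT23 replicate 3 lay below the other ZT23 arrays, and a difference of -0.80 (SE 0.0726, adjusted p = 0.00321). The other 2 activator genes of the family did not pass. Tef differed by 0.22 (95% interval 0.13 to 0.31, adjusted p = 0.0532), and its 2 probe sets disagreed: one differed by 0.51 with an adjusted p of 0.0448 over all probe sets, the other by -0.073 with an adjusted p of 0.848. Hlf differed by 0.20 (95% interval 0.032 to 0.36, adjusted p = 0.289). Csnk1e and Fbxl21, which act on PER and CRY proteins, had differences of -0.057 (95% interval -0.20 to 0.082, adjusted p = 0.803) and of 0.025 (95% interval -0.054 to 0.10, adjusted p = 0.863). A p above the threshold does not show that the times were alike, and the intervals of Cry2 and Hlf reach 0.41 and 0.36.

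A similar contrast between other times was looked at in arrays that played no part in these calls. ZT11 minus ZT19 also sets a light-phase time against a dark-phase time 8 h away and has the same sensitivity to a 24-h cosine at every phase. It shares none of the 8 arrays, and the common centring on each gene's median cancels in a difference. It called 322 genes (1.45%), 111 higher at ZT11 (0.5%) and 211 higher at ZT19 (0.951%). Of the 90 genes higher at ZT07, 88 were above 0 in ZT11 minus ZT19 and 33 were called higher at ZT11, and their median difference was 0.33 there against 0.40 in ZT07 minus ZT23. Of the 57 genes higher at ZT23, 51 were below 0 and 20 were called higher at ZT19, with a median of -0.29 against -0.42. Of all genes tested, 50.2% were above 0 in ZT11 minus ZT19. The share of called genes with the same direction was 94.6% (139 of 147), and it was 94.4% (34 of 36) for calls made without both arrays numbered 4 and 94.7% (306 of 323) for calls from the 24 arrays. The share of all genes with the same direction in both contrasts was not computed.

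**Figure D2:**
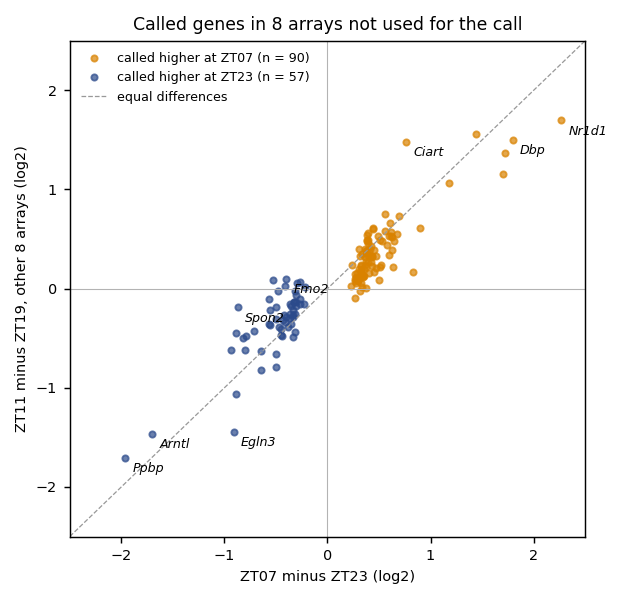
The 147 called genes, with ZT07 minus ZT23 on the horizontal axis and ZT11 minus ZT19, from 8 other arrays, on the vertical axis, both as log2 differences. Orange points are genes called higher at ZT07 and blue points those called higher at ZT23, and the dashed line marks equal differences. Of the orange points 88 of 90 lie above 0 and of the blue points 51 of 57 lie below 0.

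A test of the difference between the 2 contrasts called no gene at an adjusted p of 0.05, in the fit of 16 arrays, with a replicate block or in the fit of 24 arrays, and 1451 genes (6.54%) had an unadjusted p below 0.05. No gene is therefore described here as changed in one contrast alone. The values still differed in size for some clock genes. Ciart differed by 0.76 between ZT07 and ZT23 and by 1.48 between ZT11 and ZT19, Nr1d1 by 2.27 and 1.70, and Arntl by -1.70 and -1.46. The 8 called genes whose sign was opposite in ZT11 minus ZT19, chosen after their values were seen, were Lactb and Scarna2 among those higher at ZT07 and Cox6a2, Cryab, Fmo2, Rras, Tm7sf2 and Vmn1r127 among those higher at ZT23. Their ZT11 minus ZT19 differences lay between -0.099 and 0.099.

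The arrays of ZT03 lie between the 2 times, after ZT23 and before ZT07, and show as a description how far each gene had moved 4 h earlier. The position of the ZT03 mean was taken as the percent of the way from the ZT23 mean to the ZT07 mean. It had a median of 71.1% in the 90 genes higher at ZT07 and of 59.1% in the 57 genes higher at ZT23. It was under 25% in 11 of the 90 and 11 of the 57, and at 75% or more in 40 of the 90 and 10 of the 57. Since the same ZT23 and ZT07 arrays define the genes and the scale, no test is attached to these counts.

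The clock genes were spread over that range. Dbp had a mean of -1.05 at ZT03 against -1.08 at ZT23 and 0.71 at ZT07. Per1 and Per3 stood likewise at 3.91% and 3.36% of the way. Arntl, at 1.42, was still above its ZT23 mean of 1.30, and Clock, at 0.50, was above 0.45. Nr1d1 had gone 69.9% of the way and Cry1 68.4%. Usp2, a deubiquitinase gene described below, was lower at ZT03 (-0.76) than at either ZT23 (-0.35) or ZT07 (0.04). The RNA-binding protein gene Cirbp had gone 98% of the way, the heat shock gene Hspa8 89.3% and the platelet gene Ppbp 92.5%.

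**Figure D3:**
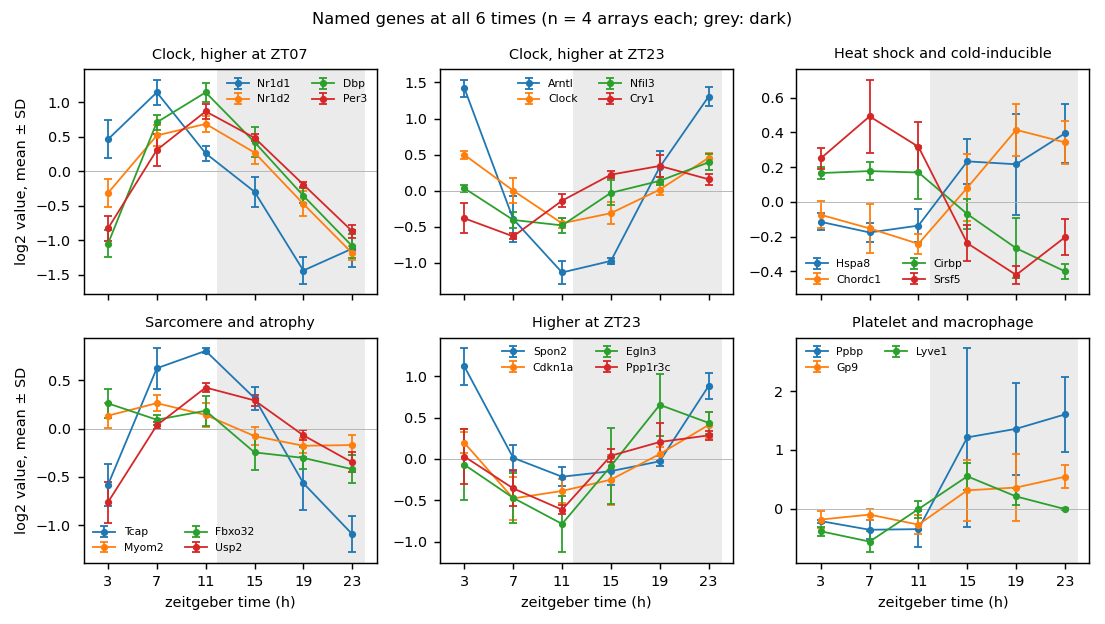
Means and SDs (n = 4 arrays) of called genes at all 6 zeitgeber times, in log2 differences from each gene's median, with the dark phase in grey. From ZT23 through ZT03 to ZT07, Dbp and Per3 moved after ZT03 while Cirbp and Hspa8 had moved by ZT03. Ppbp was high at ZT15, ZT19 and ZT23 with wide error bars.

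Outside the clock list, the largest difference among genes higher at ZT07 was in Tcap, which encodes the cap protein that anchors titin at the Z-disc of the sarcomere. Tcap had 0.54, 0.45, 0.57 and 0.94 at ZT07 and -1.26, -1.19, -1.08 and -0.83 at ZT23, a 3.29-fold higher signal at ZT07 and a log2 difference of 1.72 (SE 0.119, adjusted p = 0.00063). Of 29 measured sarcomere and Z-disc genes, Tcap, Myom2, Lmod2 and Mybpc3 were higher at ZT07 and Myot was higher at ZT23. The list's median was 0.08, against 0.0014 for all genes. Called higher at ZT07 and at ZT23 were 0.406% and 0.257% of all genes. Myom2, which encodes an M-band protein, differed by 0.43 (SE 0.0628, adjusted p = 0.0285). Lmod2, for the thin-filament length regulator leiomodin, differed by 0.37 (SE 0.0486, adjusted p = 0.0254). Mybpc3, for cardiac myosin-binding protein C, differed by 0.40 (SE 0.0611, adjusted p = 0.0324). Myot, for the Z-disc protein myotilin, had -0.30, -0.0028, -0.47 and -0.49 at ZT07 and 0.19, 0.26, 0.21 and 0.28 at ZT23, with a difference of -0.55 (SE 0.099, adjusted p = 0.0494). Leaving out both arrays numbered 4 left 2 genes higher at ZT07 and 0 higher at ZT23. Without ZT07 replicate 1 or 3, or ZT23 replicate 3 or 4, 1 was left. Tcap kept its call whichever single array was left out, while Myot lost it for 7 of the 8, with an adjusted p of 0.128 without ZT07 replicate 3.

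**Figure D4:**
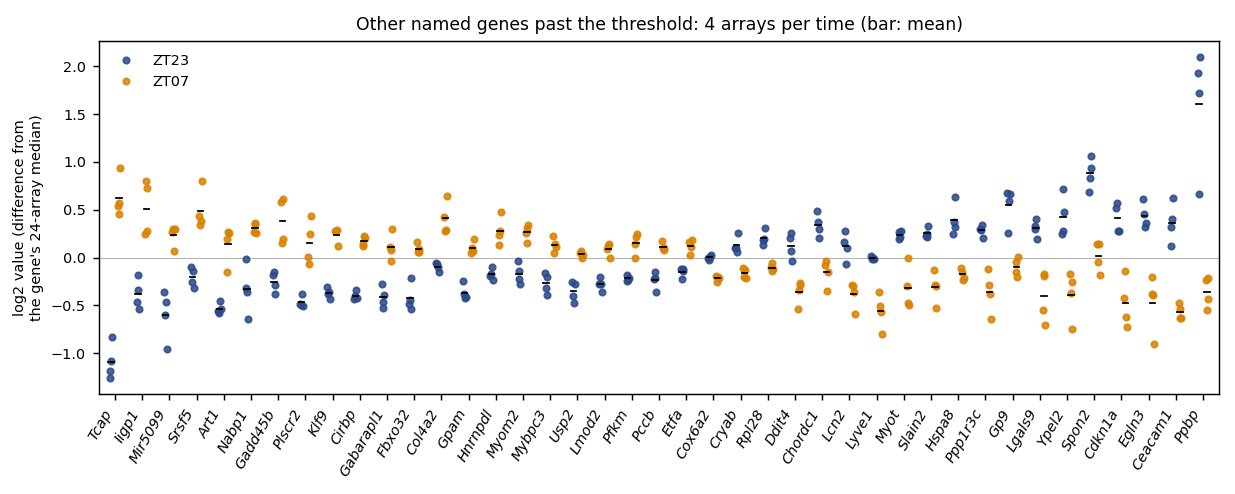
Values of the named genes outside the clock list that passed the test, on each of the 8 arrays, as log2 differences from each gene's median (blue for ZT23, orange for ZT07, bars for means of 4). Genes run from Tcap, with the largest difference toward ZT07, to Ppbp, with the largest toward ZT23, and the colours do not overlap in any of them.

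A few chaperone genes of the cytosol were lower at mid-rest. Of 24 measured genes of the cytosolic heat shock list, Hspa8, Chordc1 and Cryab were higher at ZT23 and 0 were higher at ZT07. The shares called over all genes were 0.257% and 0.406%. Of the 24, 21 had a difference below 0, and the median was -0.19. Over all 22180 genes, 11275 were above 0. The mean of the 24 genes was -0.059, -0.097, -0.11 and -0.20 on the ZT07 arrays and 0.14, 0.10, 0.013 and 0.076 on the ZT23 arrays. Every ZT07 array was thus below every ZT23 array for this list mean. The means of several other lists were also wholly apart. Among them were the hypoxia, macrophage and platelet lists, with ZT07 lower, and the sarcomere and autophagy lists, with ZT07 higher. Hspa8, which encodes the constitutive HSP70 of the cytosol, had -0.11, -0.15, -0.23 and -0.21 at ZT07 and 0.24, 0.37, 0.32 and 0.64 at ZT23, with a difference of -0.57 (SE 0.0798, adjusted p = 0.027). Its 4 probe sets all pointed to ZT23, with differences from -0.69 to -0.25. Chordc1, for a co-chaperone of HSP90, had -0.073, -0.035, -0.35 and -0.16 at ZT07 and 0.49, 0.38, 0.30 and 0.20 at ZT23, with a difference of -0.50 (SE 0.0816, adjusted p = 0.0401), and its promoter above holds 2 heat shock elements. Cryab, for the small heat shock protein alpha-B-crystallin, differed by -0.29 (SE 0.0518, adjusted p = 0.0494), but 1 of its 2 probe sets differed by -0.48 (adjusted p 0.0324 over all probe sets) and the other by -0.10 (adjusted p 0.56). Leaving out single arrays left at most 1 of these calls, with adjusted p-values of up to 0.116 for Cryab and 0.111 for Chordc1. The heat shock element stood in 9 of 21 promoters of this list (42.9%), against 7.1% of all.

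**Figure D5:**
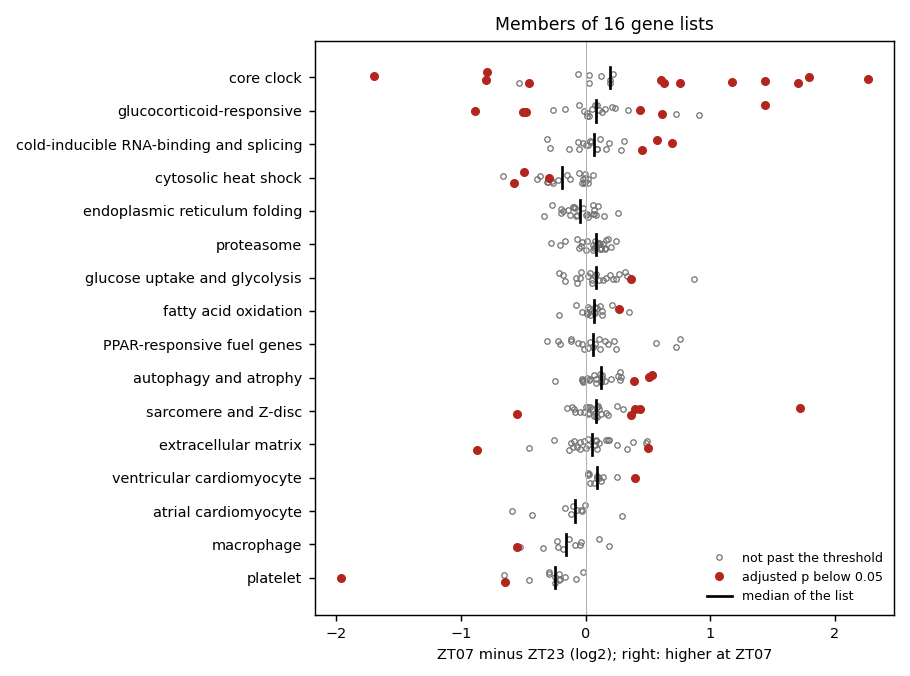
Differences between ZT07 and ZT23 of the measured members of 16 gene lists, on a log2 scale with higher at ZT07 to the right. Filled red points passed an adjusted p of 0.05, open points did not, and the black bar is the median of the list. The medians of the heat shock, macrophage and platelet lists lie at -0.19, -0.16 and -0.24.

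RNA-binding protein genes stood higher at mid-rest in 3 cases. Cirbp, the cold-inducible RNA-binding protein gene, had 0.15, 0.12, 0.23 and 0.21 at ZT07 and -0.44, -0.40, -0.34 and -0.42 at ZT23, and its 2 groups were tight (SDs of 0.05 and 0.044, n = 4). The difference was 0.58 (SE 0.0421, adjusted p = 0.000794), a 1.49-fold higher signal at ZT07. Srsf5, which encodes a splicing factor of the SR family, had 0.43, 0.35, 0.39 and 0.81 at ZT07 and -0.10, -0.25, -0.14 and -0.32 at ZT23, with replicate 4 the highest at ZT07, and a difference of 0.70 (SE 0.101, adjusted p = 0.0285). Hnrnpdl, for a nuclear ribonucleoprotein, differed by 0.45 (SE 0.0717, adjusted p = 0.0346). These were 3 of 20 measured genes of the cold-inducible and splicing list, against 0.406% of all genes called higher at ZT07. The list had 0 genes higher at ZT23 and a median of 0.07. Cirbp kept its call whichever single array was left out. Srsf5 and Hnrnpdl each lost theirs for 6 of the 8 (adjusted p of 0.0938 and 0.104 without ZT23 replicate 2), and Hnrnpdl also without both arrays numbered 4.

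A few genes of the autophagy and atrophy list were also higher at ZT07. Fbxo32, which encodes the ubiquitin ligase atrogin-1, had 0.17, 0.061, 0.088 and 0.054 at ZT07 and -0.49, -0.44, -0.21 and -0.54 at ZT23, with a difference of 0.51 (SE 0.0702, adjusted p = 0.027). Gabarapl1, for an autophagosome protein, had 0.11, 0.083, -0.038 and 0.30 at ZT07 and -0.28, -0.52, -0.47 and -0.39 at ZT23, with a difference of 0.53 (SE 0.0781, adjusted p = 0.0298). Usp2, for a deubiquitinase, differed by 0.39 (SE 0.0546, adjusted p = 0.0285). They were 3 of 25 measured members of the autophagy and atrophy list, against 0.406% of all genes called higher at ZT07. The list had 0 members higher at ZT23 and a median of 0.12. Above 0 were 20 of the 25, against 11275 of all 22180 genes. No member was called without ZT07 replicate 1 or 3, or without ZT23 replicate 2 or 4, with adjusted p-values of up to 0.0938. None of 31 measured proteasome genes passed, and 24 were above 0 with a median of 0.09. In limma 9 of the 31 had an unadjusted p below 0.05, a share above the 12.8% of all genes.

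Genes that respond to glucocorticoids went both ways, with 3 of 24 measured members higher at ZT07 and 3 higher at ZT23. Over all genes, 0.406% and 0.257% were called in these directions. Klf9, a Kruppel-like factor gene, had 0.28, 0.27, 0.29 and 0.12 at ZT07 and -0.31, -0.38, -0.36 and -0.44 at ZT23, with replicate 4 below the other ZT07 arrays, and a difference of 0.61 (SE 0.051, adjusted p = 0.0019). Per1, which is on this list too, and Nfkbia, which encodes an inhibitor of NF-kappa B and is named after its values were seen, were the other 2 higher at ZT07. Cdkn1a, for the cell cycle inhibitor p21, had -0.42, -0.14, -0.62 and -0.72 at ZT07 and 0.52, 0.57, 0.27 and 0.28 at ZT23, with a difference of -0.89 (SE 0.127, adjusted p = 0.0285). Ddit4, for the mTORC1 inhibitor REDD1, had -0.53, -0.34, -0.29 and -0.26 at ZT07 and 0.20, 0.067, 0.26 and -0.041 at ZT23, with a difference of -0.48 (SE 0.0806, adjusted p = 0.044). Lcn2, for lipocalin-2, had -0.29, -0.30, -0.36 and -0.59 at ZT07 and 0.17, 0.28, -0.069 and 0.10 at ZT23, with a difference of -0.50 (SE 0.0884, adjusted p = 0.0483). Klf9 kept its call whichever single array was left out. Ddit4 and Lcn2 lost theirs whichever array was left out (adjusted p of 0.11 and 0.116 without ZT23 replicate 2), and Cdkn1a for 6 of the 8 arrays. Without both arrays numbered 4, 1 member was higher at ZT07 and 0 were higher at ZT23.

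In fuel metabolism few genes passed. Over all genes, 0.406% were called higher at ZT07 and 0.257% higher at ZT23. Of 24 measured genes of glucose uptake and glycolysis, Pfkm, for the muscle form of phosphofructokinase, was higher at ZT07 by 0.37 (SE 0.056, adjusted p = 0.0324). In limma 13 of the 24 had an unadjusted p below 0.05, a share above the 12.8% of all genes. The fit of all 24 arrays called 5 genes of this list higher at ZT07 and 0 higher at ZT23. Of 17 glycogen genes, Ppp1r3c, which encodes a subunit that targets protein phosphatase 1 to glycogen, was higher at ZT23. Ppp1r3c had -0.12, -0.28, -0.38 and -0.64 at ZT07 and 0.30, 0.29, 0.34 and 0.21 at ZT23, with a difference of -0.64 (SE 0.0964, adjusted p = 0.0314). Gpam, for the mitochondrial enzyme that starts triglyceride synthesis, was the 1 gene of 22 in its list and had 0.046, 0.10, 0.065 and 0.19 at ZT07 and -0.25, -0.39, -0.42 and -0.41 at ZT23, a difference of 0.47 (SE 0.0523, adjusted p = 0.0102). Etfa, an electron carrier of fatty acid oxidation, differed by 0.27 (SE 0.0472, adjusted p = 0.0483) and was 1 of 19 in its list. Pccb, of propionyl-CoA carboxylase, differed by 0.35 (SE 0.0503, adjusted p = 0.0285) and was 1 of 20 in the list of branched-chain amino acid catabolism. Gpam kept its call whichever single array was left out but not without both arrays numbered 4 (adjusted p = 0.0531). Pfkm, Ppp1r3c, Etfa and Pccb each lost theirs for at least 6 of the 8 arrays, with an adjusted p of 0.129 for Etfa without ZT07 replicate 1.

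None of 21 measured genes of the PPAR-responsive fuel list passed. Its largest differences, in genes chosen after their values were seen, were in Ucp3, a mitochondrial uncoupling protein gene, and Pdk4, for the kinase that shuts pyruvate dehydrogenase. Ucp3 differed by 0.75 (95% interval 0.44 to 1.07, adjusted p = 0.0548) and Pdk4 by 0.73 (0.39 to 1.07, adjusted p = 0.0764). In ZT11 minus ZT19 they differed by 0.52 and 0.77. None of 17 genes of sterol and fatty acid synthesis or of 17 tricarboxylic acid cycle genes passed either. Of 44 oxidative phosphorylation genes, Cox6a2, for the heart and muscle form of a cytochrome c oxidase subunit, was higher at ZT23, with a difference of -0.22 (SE 0.0354, adjusted p = 0.0395), and of 40 ribosomal protein genes Rpl28 was, with -0.31 (SE 0.047, adjusted p = 0.0314). Both calls were lost whichever single array was left out, and the ZT11 minus ZT19 differences were 0.021 and -0.024. The share of all genes called higher at ZT23 was 0.257%.

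Of 28 extracellular matrix genes, Spon2 was higher at ZT23 and Col4a2 at ZT07. Over all genes, 0.257% and 0.406% were called in these directions. Spon2, for the secreted protein spondin-2, had 0.15, -0.047, 0.14 and -0.19 at ZT07 and 0.69, 0.84, 1.07 and 0.94 at ZT23, with a difference of -0.87 (SE 0.0979, adjusted p = 0.0102). It was higher still at ZT03, with a mean of 1.12. Col4a2, for a collagen of basement membranes, differed by 0.51 (SE 0.078, adjusted p = 0.0329). Of 19 genes of hypoxia and oxygen sensing, Egln3 and Ddit4 were higher at ZT23. Egln3, which encodes a prolyl hydroxylase that marks HIF proteins for breakdown, had -0.38, -0.20, -0.39 and -0.91 at ZT07 and 0.61, 0.46, 0.32 and 0.36 at ZT23, with a difference of -0.91 (SE 0.138, adjusted p = 0.0324). It differed by -1.44 between ZT11 and ZT19. The call of Egln3 was lost on leaving out any 1 of 6 arrays (adjusted p = 0.102 without ZT23 replicate 2), that of Col4a2 likewise (0.0973 without ZT23 replicate 2), and Spon2 kept its call for all 8 but not without both arrays numbered 4 (adjusted p = 0.0518), where 0 of 28 matrix genes were called. In the hypoxia list 1 call was left without both arrays numbered 4, and 0 of 19 were called without ZT07 replicate 1 or 3 or without any one ZT23 array. In the fit of all 24 arrays neither Egln3 nor Ddit4 was called.

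The remaining lists held 0 to 2 calls each, against 0.406% of all genes called higher at ZT07 and 0.257% higher at ZT23. Of 24 genes of interferon and inflammation, Iigp1, an interferon-inducible GTPase gene, was higher at ZT07 with 0.24, 0.80, 0.73 and 0.28 at ZT07 and -0.47, -0.19, -0.34 and -0.54 at ZT23, a difference of 0.90 (SE 0.138, adjusted p = 0.0324), and Lcn2 was higher at ZT23. Of 28 cell cycle and p53 target genes, Gadd45b, a growth arrest gene, was higher at ZT07 by 0.64 (SE 0.114, adjusted p = 0.0494) and Cdkn1a at ZT23. Of 27 genes of insulin and nutrient signalling Ddit4 was called. Of 23 calcium handling, 20 ion channel, 23 cardiac stress, 26 vascular, 22 immediate early, 24 endoplasmic reticulum, 31 NAD and redox, 20 amino acid transporter and 29 ribosome biogenesis genes none passed. The medians of these 9 lists lay between -0.042 and 0.10. In the 13 pathway lists with 0 calls, 86 of 304 memberships had an unadjusted p below 0.05 in limma. That share was above the 12.8% of all genes. The lists were chosen with earlier results of these data known, so no test is attached to it. Iigp1 and Gadd45b lost the call on leaving out any 1 of 7 arrays, with adjusted p-values of 0.0982 without ZT07 replicate 3 and 0.125 without ZT07 replicate 1.

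Marker genes of platelets and macrophages lay lower at ZT07. All 14 measured platelet genes were below 0, with a median of -0.24, and Ppbp and Gp9 were called higher at ZT23. Among all 22180 genes, 11275 were above 0 and 0.257% were called higher at ZT23. Ppbp, which encodes a chemokine stored in platelets, had -0.24, -0.55, -0.22 and -0.43 at ZT07 and 1.93, 0.67, 1.72 and 2.10 at ZT23, where ZT23 replicate 2 was far below the other ZT23 arrays and still above every ZT07 array. Its difference was -1.96 (SE 0.27, adjusted p = 0.027), or 3.9-fold, and the call was lost on leaving out any 1 of 7 arrays. Gp9, for a subunit of the platelet receptor of von Willebrand factor, had -0.051, -0.15, -0.20 and 0.0064 at ZT07 and 0.67, 0.26, 0.59 and 0.66 at ZT23, with a difference of -0.64 (SE 0.0939, adjusted p = 0.0289). The mean of the 14 genes lay between -0.13 and -0.037 on the ZT07 arrays and at 0.39, 0.076, 0.32 and 0.42 on the ZT23 arrays. In ZT11 minus ZT19 the list's median was -0.23. Without ZT23 replicate 2 both calls stayed, without ZT07 replicate 4 there was 1, and without any other array or both numbered 4 there were 0. In the fit of all 24 arrays 1 platelet gene was called, and Gp9 lost its call. How much blood remained in the tissue was not measured, and its part in these values was not tested.

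Of 12 macrophage markers, 10 were below 0 with a median of -0.16, and Lyve1, a marker of resident macrophages and of lymphatic endothelium, passed. Among all 22180 genes, 11275 were above 0, 0.257% were called higher at ZT23 and 0.406% higher at ZT07. Lyve1 had -0.36, -0.51, -0.57 and -0.80 at ZT07 and 0.011, -0.014, -0.0089 and -0.012 at ZT23, with a difference of -0.55 (SE 0.0807, adjusted p = 0.0289), and lost the call for 6 of the 8 arrays left out singly (adjusted p = 0.0963 without ZT07 replicate 3). The list mean ran from -0.31 to -0.065 on the ZT07 arrays and from -0.041 to 0.12 on the ZT23 arrays. All 12 ventricular cardiomyocyte markers were above 0 with a median of 0.09, Mybpc3 alone among them past the threshold. Of 10 atrial markers 9 were below 0. Among them Myl7, the atrial light chain gene, differed by -0.59 (adjusted p = 0.171) with overlapping groups. The mean of the atrial list lay between -0.11 and -0.053 on the ZT07 arrays and was -0.092 on ZT23 replicate 1, against 0.056 to 0.13 on the other ZT23 arrays. The part of atrial tissue, macrophages or vessels in the other differences was not tested. Only 2 of 8 red cell markers were measured. None of the markers passed for lung, thymus, mesothelium, nerve, skeletal muscle or fat, nor for red cells, lymphocytes, neutrophils, fibroblasts, endothelium or the mural cells of vessels, and the medians of these 12 lists lay between -0.04 and 0.061. In these and the atrial list, 16 of 111 memberships had an unadjusted p below 0.05, a share near the 12.8% of all genes. Since no level is kept, whether these markers or those of cardiomyocytes were present at all could not be checked.

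The other named genes higher at ZT07 were Art1, Nabp1, Plscr2 and Mir5099. Art1, which encodes an ADP-ribosyltransferase of muscle membranes, had 0.19, -0.15, 0.26 and 0.26 at ZT07 and -0.56, -0.58, -0.46 and -0.54 at ZT23, with a difference of 0.68 (SE 0.0885, adjusted p = 0.0245). Nabp1, for a single-stranded DNA binding protein, differed by 0.64 (SE 0.111, adjusted p = 0.0454). Plscr2, of the phospholipid scramblase family, differed by 0.63 (SE 0.102, adjusted p = 0.0395). Each of these calls was lost for at least 6 of the 8 arrays left out, with an adjusted p of 0.121 for Nabp1 without ZT07 replicate 3. The microRNA gene Mir5099 had 0.27, 0.30, 0.074 and 0.29 at ZT07 and -0.37, -0.60, -0.46 and -0.96 at ZT23, with a difference of 0.83 (SE 0.118, adjusted p = 0.0285), against 0.16 in ZT11 minus ZT19, and lost the call for 6 of the 8 arrays (adjusted p = 0.0905 without ZT23 replicate 2).

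The microRNA gene Mir99a, named here after its values were seen because its mature sequences are on record, was also higher at ZT07, by 0.50 (SE 0.0663, adjusted p = 0.0263). Its mature forms in RefSeq (GRCm38.p6, hairpin at chr16:77598936-77599000, plus strand) are printed with the seed, bases 2 to 8, in capitals. Whether the probe set reads the mature form or only the precursor was not tested.
mmu-miR-99a-5p: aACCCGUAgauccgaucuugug
mmu-miR-99a-3p: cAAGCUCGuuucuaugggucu

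The other named genes higher at ZT23 were Ceacam1, Ypel2, Lgals9 and Slain2. Ceacam1, for a cell adhesion molecule of endothelium and leukocytes, had -0.48, -0.64, -0.54 and -0.64 at ZT07 and 0.12, 0.32, 0.40 and 0.62 at ZT23, with a difference of -0.94 (SE 0.0955, adjusted p = 0.0052), and kept the call whichever single array was left out. Lgals9, for the sugar-binding protein galectin-9, had -0.55, -0.19, -0.17 and -0.71 at ZT07 and 0.33, 0.30, 0.41 and 0.20 at ZT23, with a difference of -0.71 (SE 0.117, adjusted p = 0.0399). Ypel2, of the yippee-like family, differed by -0.82 (SE 0.14, adjusted p = 0.0454), and Slain2, for a protein of growing microtubule ends, by -0.57 (SE 0.0758, adjusted p = 0.0263). The 2 probe sets of Slain2 differed by -0.79 (adjusted p = 0.011 over all probe sets) and by -0.34 (adjusted p = 0.22). Lgals9, Ypel2 and Slain2 lost their calls for 7, 8 and 5 of the 8 arrays left out, with an adjusted p of 0.11 for Lgals9 without ZT23 replicate 2.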

How the data were processed

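The deposited table holds 1 value per probe set and array for 34351 probe sets and 24 arrays. The values were read as log2 values that the authors made relative to each probe set's median over the 24 arrays, since that median is 0 in the deposited values. The base of the logarithm, the array summary, the background correction and the normalization are steps not given in the sources used here, and for arrays it is their number that limits the precision. The platform annotation pairs 23521 probe sets with 1 gene symbol, 1814 with several and 9016 with none, and the mean over the probe sets of a single symbol gave 22180 genes. A gene table of GRCm38.p6 was used for gene names and types only. No sample was left out or imputed, and groups follow the labelled time points.

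ZT07 minus ZT23 was tested in limma 3.58.1 under R 4.3.3 (lmFit and eBayes) on the 8 arrays, with 6 residual degrees of freedom, no block, and Benjamini-Hochberg adjustment over all 22180 genes. A gene with an adjusted p below 0.05 is said to be called, to pass or to be higher at a time. ZT11 minus ZT19 was tested in the same way on its own 8 arrays, and the difference of both on 16. Each p-value comes from a test of a difference of group means against the spread between samples of a group, moderated over genes. The test was tried on simulated data with known changes. Alternatives were all 24 arrays in 1 fit, a replicate block, array weights, robust moderation, quantile or median normalization, other rules for probe sets, filters on genes, and leaving out arrays.

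The members, the 31 pathway lists and the 16 cell type lists were chosen with earlier results of these data known. Named genes were, among called genes, the 15 with the largest difference in each direction, all measured clock genes and up to 4 of each list with the smallest p. The rule also allowed genes past the test of the difference of differences, of which there were none. Predicted genes were not named. Promoters and microRNAs came from RefSeq tables of GRCm38.p6, with the first window of a gene that has several. Sequences of some named genes are not printed.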

Additional observations from a re-analysis of the deposited data

Results flagged for a closer look

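In 5 of 122 groups of 4 arrays (61 named genes at 2 times), 1 array stood apart from the other 3 by Dixon's criterion. Chance alone marks about 1 group in 20. Mir5099 was 0.0738 in ZT07 replicate 3, against 0.269 to 0.301 in the other ZT07 arrays. Ciart was -0.127 in ZT23 replicate 4, against -0.414 to -0.38 in the others. Art1 was -0.148 in ZT07 replicate 2, against 0.194 to 0.262. Klf9 was 0.118 in ZT07 replicate 4, against 0.275 to 0.285. Nfil3 was 0.224 in ZT23 replicate 3, against 0.441 to 0.455. In all 5 genes the array still lay on its own side of the other time's arrays.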

How the results depend on the processing

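The number of genes called moved with the setting. Called genes in all, higher at ZT07 and higher at ZT23 were 323, 208 and 115 with 24 arrays in 1 fit, 239, 137 and 102 after quantile normalization, and 354, 203 and 151 among the more variable genes. Robust moderation gave 36 higher at ZT23. Leaving out 1 array gave 21 to 92 in all, 15 to 63 higher at ZT07 and 6 to 29 higher at ZT23, and leaving out both arrays numbered 4 gave 36, 21 and 15. The replicate block gave 27, 19 and 8, of which 23 were among the 147, and 152 against 322 for ZT11 minus ZT19. Deviations from the group mean correlated at 0.151, 0.014, -0.0147 and 0.111 in same-numbered arrays of ZT07 and ZT23. In differently numbered pairs the correlations ran from -0.154 to 0.0952. Whether same-numbered arrays share more than a number was not tested. Counts under the other 5 settings stayed within 1.5 times. Named calls kept in all 19 alternatives were Nr1d1, Dbp, Tcap, Nr1d2, Per3, Bhlhe40, Klf9, Cirbp, Cry1, Nfil3 and Arntl. Named calls lost in the fit of all 24 arrays were Cox6a2, Cryab, Ddit4, Myot, Gp9 and Egln3. Rorb, not called, ran from -0.024 to 0.067 over single arrays left out and was below 0 without ZT07 replicate 3 (-0.011) and without ZT23 replicate 2 (-0.024). The shares of same direction and the counts of list members under other settings were chosen after seeing the data. Signal over background is unknown, so dim genes could not be set aside. The cause of these shifts was not tested, except that fewer arrays leave fewer degrees of freedom.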

Other observations

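Further called genes, chosen after their values were seen, are given as values. Among those higher at ZT07 with the smallest adjusted p outside the lists were Osbp, a sterol-binding protein gene, at 0.40 (adjusted p = 0.0052), Apex2, a DNA repair nuclease gene, at 0.60 (adjusted p = 0.0052), and Coq10b, which encodes a coenzyme Q-binding protein, at 0.60 (adjusted p = 0.0052). Their differences in ZT11 minus ZT19 were 0.34, 0.53 and 0.34. The myosin light chain kinase genes Mylk3 and Mylk4 were both higher at ZT07, at 0.37 and 0.36, and in ZT11 minus ZT19 they were at 0.28 and 0.32. Polr2a, for the large subunit of RNA polymerase II, was at 0.37 and 0.36. Hspg2 and Agrn, for the basement membrane proteins perlecan and agrin, were at 0.31 and 0.32 in ZT07 minus ZT23 and at 0.20 and 0.056 in ZT11 minus ZT19.

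Among genes higher at ZT23, the tetraspanin gene Tspan18 was at -0.50 (-0.79 in ZT11 minus ZT19). Hspb3, a small heat shock protein gene that the heat shock list did not hold, was at -0.44 (-0.48). Id2, for an inhibitor of helix-loop-helix factors, was at -0.42 (-0.27).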
